A study of Homo sapiens with 32 samples.

Results

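The proteins of the small subunit of the cytosolic ribosome were followed through the mRNAs of 28 genes in a human colorectal carcinoma line. The genes were RPSA, RPS2, RPS3, RPS3A, RPS4X, RPS6, RPS7, RPS9, RPS10, RPS12, RPS13, RPS14, RPS15, RPS15A, RPS16, RPS18, RPS19, RPS20, RPS21, RPS23, RPS24, RPS25, RPS26, RPS27, RPS27A, RPS28, RPS29 and FAU. They were taken by symbol from a list of the family, and each was represented by the transcript that held the most reads summed over all libraries. They made up 28 of the 15105 named genes with at least 1 read.

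The cells were HCT116, which carried OsTIR1, the plant auxin receptor, under a tetracycline-inducible promoter (Tet-OsTIR1-PURO). Parental cells carried no degron, and in the tagged line (Tet-OsTIR1-PURO, mAID-IGF2BP3) the endogenous RNA-binding protein IGF2BP3 carried a degron on which OsTIR1 acts when auxin is present. Whether the tagged line is 1 clone is not given in the sources used here. Cells of both lines were left unstressed or stressed with tunicamycin at 5 µg/mL for 5 h, an inhibitor of N-glycosylation that causes endoplasmic reticulum stress, and received auxin at 500 µM for 9 h or DMSO as the vehicle. The unstressed groups, with auxin or without, are labelled as DMSO controls of the stress treatment too. Below, vehicle means the DMSO given in place of auxin. Doxycycline at 200 ng/mL for 24 h was given to all 8 groups, controls included, and so was the uridine analogue s4U at 250 µM for 2 h. Each group had 4 libraries, each from 1 well, and nothing in the labels ties the wells to separate cultures, so the p-values below measure the spread between wells. The libraries were SLAM-seq libraries of mRNA 3′ ends. The RNA of all groups was alkylated with iodoacetamide at 10 mM, after which s4U is read as C, and a read that carries T-to-C conversions is counted as labelled. Such reads mark RNA made during the s4U pulse, besides conversions that arise without label.

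The small subunit binds the mRNA, holds the decoding centre and, with the initiation factors, scans for the start codon. Nearly all ribosomal protein mRNAs are TOP mRNAs: they start with a C followed by a run of C and T (U in the RNA), and translation of these mRNAs depends on mTOR signalling and the binding protein LARP1. The mRNAs are abundant and long-lived in dividing cells. Several of the proteins have further roles. RPS6 is the classic substrate of the S6 kinases, RPSA is also known as the laminin receptor, and RPS2, RPS3, RPS10 and RPS20 are ubiquitinated when ribosomes stall or collide. RPS27A and FAU are made as fusions, of ubiquitin with RPS27A and of the ubiquitin-like protein FUBI with the protein of the small subunit that FAU encodes.

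The start of the mRNA is the sequence feature that these genes share and that the choice of genes did not use. Promoter sequences from RefSeq (GRCh38.p14) matched 25 of the 28 genes, all but RPS2, RPS15A and RPS20. A run was counted where the annotated start was a C and at least 5 bases in a row from there were C or T, read on the gene's own strand only, since the feature belongs to the RNA. It was present in 18 of the 25 genes (72%), in 25 of 38 large-subunit genes (65.8%), and in 4.60% of the 15843 protein-coding genes of the table. The starts of RPS24 and RPS6 are given for their level and role, with those of 8 genes that passed a test in a comparison described later. Each window has 30 bases, 5′ to 3′, with 10 bases before the annotated start and with capitals for the run that begins at the start.
RPS24: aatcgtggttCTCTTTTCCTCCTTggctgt
RPS6: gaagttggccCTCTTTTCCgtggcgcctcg
RPS14: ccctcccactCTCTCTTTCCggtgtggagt
RPS19: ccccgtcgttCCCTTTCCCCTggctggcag
FAU: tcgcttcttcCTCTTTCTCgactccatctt
RPSA: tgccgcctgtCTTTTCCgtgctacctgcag
RPS3: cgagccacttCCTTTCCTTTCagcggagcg
RPS3A: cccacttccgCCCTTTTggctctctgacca
RPS29: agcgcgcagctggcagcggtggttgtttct
RPS4X: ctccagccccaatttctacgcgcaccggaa
The windows are chr10:78033853-78033882 on the plus strand for RPS24, chr9:19380217-19380246 on the minus strand for RPS6, chr5:150449720-150449749 on the minus strand for RPS14 and chr19:41860245-41860274 on the plus strand for RPS19. RPSA lies at chr3:39406710-39406739, RPS3 at chr11:75399508-75399537 and RPS3A at chr4:151099618-151099647, all on the plus strand. FAU lies at chr11:65122115-65122144, RPS29 at chr14:49598691-49598720 and RPS4X at chrX:72277229-72277258, all on the minus strand. RPS29 and RPS4X are shown as genes with no such run at the annotated start. The others without it were RPS7, RPS15, RPS26, RPS27A and RPS28, and a missing run says only that these letters do not begin at this annotated base.

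The 32 libraries held 987373 to 6981766 reads on named genes, of which 8.88% to 13.5% were labelled. The lower end of both ranges was a single library, replicate 1 of the stressed parental cells with auxin, called the smallest library below. The other 31 held at least 2548527 reads, and at least 10.3% of these were labelled. The smallest library also covered 15.1 T per read, against 20.3 to 24.1 in the others, and in it 14 of the 28 genes lay above the mean of the other 3 wells of its group. RPS9 was 2.18 higher there on the log2 scale, RPS28 was 1.52 higher and RPS20 1.02 higher, while RPS29 stood at -2.84 and RPS6 at -2.28. Results that rest on this library are given with and without it. The tunicamycin labels matched the stress genes, since DDIT3, a transcription factor induced by endoplasmic reticulum stress, had group means of 21.3 to 25.1 CPM (counts scaled to a common library size) in unstressed and 838 to 864 in stressed cells. IGF2BP3 mRNA lay between 145 and 183 CPM in all 8 group means and does not check the loss of the protein. The epithelial genes EPCAM, KRT8, KRT18 and KRT19 were present in each group, while the group means of the endothelial PECAM1, CDH5 and VWF and the fibroblast gene DCN were at most 0.169, 0.0859, 0.555 and 0.138 CPM; the fibroblast gene COL1A1 lay between 21.5 and 41.6.

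All 28 genes passed the filter on total reads, and 24 of them passed the filter on labelled reads, the exceptions being RPS7, RPS18, RPS26 and RPS27. RPS24, a protein of the small subunit, collected the most reads, with 662357 over all libraries and a median of 19980 per library, and RPS7 the fewest, with 208 and a median of 6.5. The next lowest sums were those of RPS26 (351), RPS27 (871), RPS13 (1078), RPS18 (1439) and RPS25 (4075), followed by RPSA (7721). The regions in which reads were counted ran from 22 bases for RPS12 to 2789 for RPS23, and the genome holds many processed copies of these genes, such as 74 named pseudogenes of RPSA and 59 of RPS26, against 4 of FAU. The assignment of reads between a gene and its copies is uncertain, and levels are therefore compared between groups and never between genes.

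Few reads of these genes were labelled. Over all libraries the median gene of the set had 3.73% labelled reads, against 15.8% for all genes tested, and conversions at 0.273% of covered T, against 1.15%. A read of the median gene of the set covered 13.2 T, and a read of the median of all genes 24.0, so a read of these genes had fewer bases at which a label could show. Most of the genes lay between 2.23% (RPS15) and 5.81% (RPS28). RPS24 stood at 2.30%, RPS3 at 2.34%, RPS6 at 3.87% and FAU at 4.32%. The 5 that stood above this range were among the 6 least counted genes of the set: RPS25 at 66.1%, RPS13 at 45.6%, RPS26 at 27.4%, RPS7 at 19.7% and RPS27 at 13.5%. In RPS25 conversions reached 4.44% of covered T and in RPS13 3.95%. Libraries without s4U are not analysed here, so the level of conversions without label is unknown, and the share of these low values that is new RNA cannot be given.

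Together the 28 mRNAs took up 2.87% to 5.00% of all reads. In unstressed parental cells they held 4.66% ± 0.356 of the reads with the vehicle and 4.19% ± 0.249 with auxin (SD, n = 4 throughout). Stressed parental cells gave 4.30% ± 0.308 with the vehicle and 3.96% ± 0.664 with auxin, or 4.26% ± 0.331 (n = 3) without the smallest library. In the tagged line the unstressed cells gave 4.51% ± 0.187 with the vehicle and 3.63% ± 0.519 with auxin, and the stressed cells 4.59% ± 0.258 and 3.90% ± 0.0704. The auxin mean was the lower one in all 4 pairs of groups. In the tagged line the wells with auxin and those with the vehicle did not overlap, stressed or unstressed, and in parental cells they did. As in any bulk sample, fewer cells and less RNA per cell cannot be told apart, and a share of reads gives no amount of RNA.

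**Figure D1:**
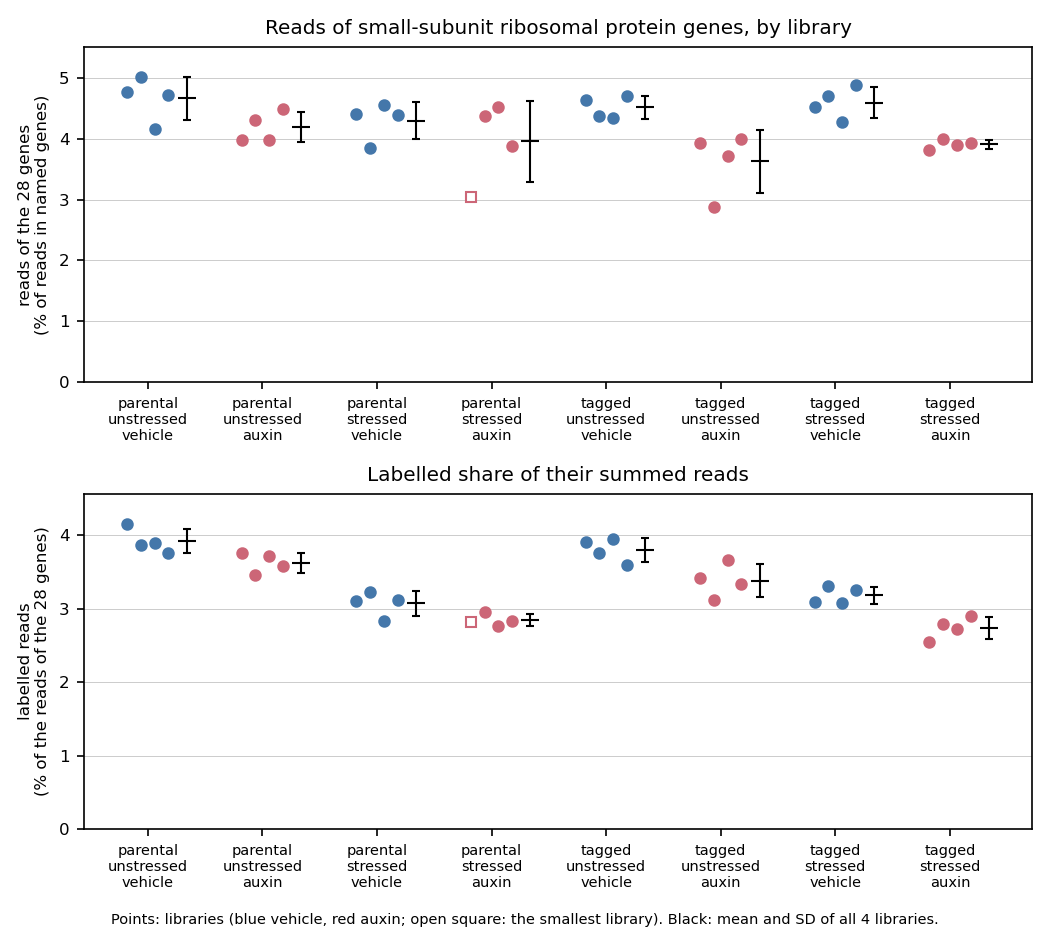
Share of all reads on the 28 small-subunit mRNAs and the labelled share of those reads, in percent, in each of the 8 groups. Points are single libraries (the open square is the smallest library), and black marks give the mean and SD of all 4. In the upper plot the auxin wells of the tagged line lie below its vehicle wells without overlap, and in the lower plot each stressed group has a lower mean than its unstressed group.

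Wells of the same group differed along a direction that most of these mRNAs followed. Over 7046 genes that encode no ribosomal protein, the leading component of the deviations from the group means held 40.5% of the within-group variance in the 31 libraries other than the smallest. The median deviation was taken over the 23 genes of the set with a mean of at least 20 CPM. It had a Pearson r of -0.887 and a Spearman rho of -0.933 with the score on this component, and r was -0.865 without the 2 libraries farthest from the median score. With the covered T per read of the library, r was -0.844 and rho -0.842. Reads of ribosomal protein genes, 8.48% to 13.3% of a library, enter this value and cover few T, so part of the relation is built in. Over the reads of all other genes r was -0.787 and rho -0.786. These are descriptions over libraries that share their group means. The correlation was negative for 25 of the 28 genes and under -0.5 for 21, and positive for RPS29 (0.434), RPS25 (0.314) and RPS7 (0.314). The spread of a gene of the set within a group was not unusual, at a median SD of 0.183 on the log2 scale for the 23 genes with a mean of at least 20 CPM, against 0.178 for the other genes. The score on the component, computed with group differences kept and without the smallest library, averaged -0.255 ± 0.209 in unstressed parental cells with the vehicle and 0.0977 ± 0.109 with auxin (SD, n = 4). In the tagged line it went from -0.125 ± 0.113 to 0.166 ± 0.125 unstressed and from -0.122 ± 0.146 to 0.121 ± 0.0601 stressed. In stressed parental cells it was 0.0714 ± 0.121 with the vehicle and 0.0614 ± 0.126 (n = 3) with auxin. Covered T per read averaged 21.3 and 22.9 (vehicle, then auxin) in unstressed and 22.5 and 22.8 in stressed parental cells, and 21.8 and 23.2, then 21.8 and 22.8, in the tagged line.

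**Figure D2:**
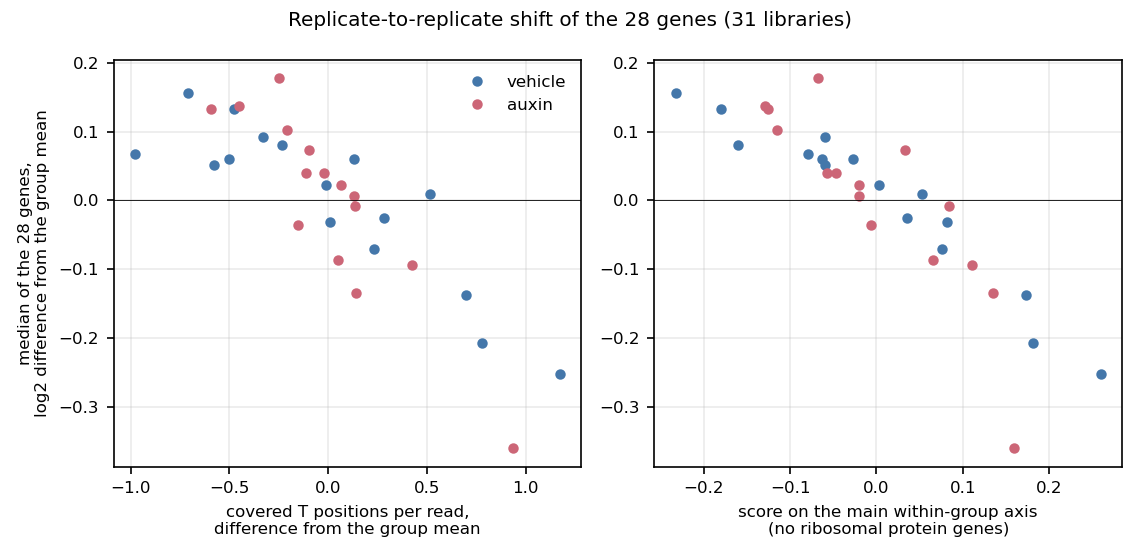
Median deviation from the group mean (log2) against the deviation of covered T per read from its group mean (left) and against the score on the within-group component (right), with a point for each of the 31 libraries other than the smallest. The median is over the 23 of the 28 mRNAs with a mean of at least 20 CPM, although the title and axis name the 28. Libraries with more covered T per read, a value to which the reads of these genes contribute, have lower values of these mRNAs, with a Pearson r of -0.844, and r is -0.887 on the right, where ribosomal protein genes do not enter the score.

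The comparison of auxin with the vehicle was made in both lines, so that depletion of the tagged protein can be read against auxin alone. In unstressed parental cells, where nothing carries the degron, 6 of the 28 mRNAs fell with auxin and none rose, while 2.33% of the 11186 genes tested fell and 7.16% changed in either direction (edgeR's quasi-likelihood test, Benjamini-Hochberg adjusted over all genes). The median change of the 28 was -0.34 on the log2 scale and 23 were negative, against a median of -0.01 over all genes. The 4 with the smallest adjusted p were RPS15A, RPS2, RPS3A and RPS3, and the others were RPSA and RPS21.

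RPS15A had 286, 275, 228 and 288 CPM in the 4 unstressed parental wells with the vehicle and 161, 167, 158 and 188 with auxin. All wells with auxin were lower, by -0.68 ± 0.13 on the log2 scale (standard error, edgeR adjusted p = 0.00609). Tagged cells had RPS15A at 221, 218, 220 and 214 CPM with the vehicle and 175, 110, 177 and 194 with auxin. These wells did not overlap either, but the change did not pass the test with all libraries. RPS2, which lies at the mRNA entry channel, fell from 596, 629, 427 and 524 CPM to 348, 345, 338 and 412 in parental cells, with no overlap (-0.59 ± 0.13, edgeR adjusted p = 0.0112). RPS3A went from 242, 215, 145 and 190 to 110, 116, 110 and 140, again with no overlap (-0.73 ± 0.16, edgeR adjusted p = 0.0113). For RPS3, a protein of the mRNA entry site, the values were 4251, 4082, 2813 and 3385 with the vehicle and 2471, 2683, 2246 and 2922 with auxin. Replicate 4 with auxin lay above replicate 3 with the vehicle, and the change was -0.49 ± 0.14 (edgeR adjusted p = 0.0321). RPSA had 78.6, 81.2, 70.5 and 71.5 with the vehicle and 52.9, 56.6, 56.6 and 59.5 with auxin, which did not overlap (-0.42 ± 0.12, edgeR adjusted p = 0.0356). RPS21 passed the test narrowly, at -0.44 ± 0.14 (edgeR adjusted p = 0.0478), and lost it when any of 24 single libraries was left out. The count of 6 was 1 without replicate 1 or 2 of the vehicle wells or replicate 3 of the auxin wells (0.976%, 0.417% and 0.729% of genes called). It was 2 without replicate 1 of the auxin wells (0.897%). It was 3 without replicate 4 of the vehicle or replicate 2 of the auxin wells (2.2% and 4.71%). In each of these fits the share of all genes called was lower than with all libraries.

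In the tagged line all 28 changes with auxin were negative in unstressed cells, with a median of -0.40, yet none passed edgeR's test with all libraries. At an unadjusted p under 0.05 there were 18, DESeq2 called 8, and edgeR called 0.679% of all genes. DESeq2 called 0.304% to 11.9% of all genes over the auxin comparisons. For the counts at an unadjusted p, here and below, the share of all genes is not given, so they are not read as results. The signs and medians of all genes are not given for the comparisons of this paragraph either. Most of the 28 shift together between wells, so a shared sign is not 28 separate observations. In stressed cells the median was -0.31 with 26 of 28 negative in the tagged line (0 called by edgeR, 11 at an unadjusted p under 0.05, 0 by DESeq2) and -0.11 with 18 of 28 negative in parental cells (0 called, 5 unadjusted, 1 by DESeq2). Of all genes, 0.0179% were called in each of these 2 comparisons.

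Leaving out the smallest library, which takes part in the estimate of the spread for every comparison, changed these counts. In the tagged unstressed cells 20 of the 28 then fell with auxin, where 8.17% of 11258 genes fell and 15.9% changed in either direction. The strongest calls were RPS20, RPS19, RPS14 and RPS10. RPS20 had 1550, 1556, 1525 and 1664 CPM with the vehicle and 1149, 742, 1120 and 1239 with auxin, a change of -0.56 ± 0.12 (edgeR adjusted p = 0.0059). RPS19, the gene most often mutated in Diamond-Blackfan anaemia, had 1344, 1246, 1112 and 1350 and then 921, 548, 891 and 951 (-0.61 ± 0.14, edgeR adjusted p = 0.00816). RPS14, lost with the deleted region of the 5q- syndrome, had 2328, 1951, 2246 and 2860 and then 1768, 1289, 1606 and 1790 (-0.54 ± 0.13, edgeR adjusted p = 0.00841). In these 3 genes every auxin well was below every vehicle well, and replicate 2 with auxin was the lowest. In unstressed parental cells 12 fell without the smallest library (11.2% of genes fell, 24.9% changed), led by RPS15A, RPS3A, RPS2 and RPS23. RPS14, RPS19 and RPS20 fell in tagged stressed cells, by -0.49 ± 0.13, -0.52 ± 0.14 and -0.46 ± 0.12 (edgeR adjusted p = 0.0383, 0.0425 and 0.0422), where 1.60% of genes fell and 2.51% changed. In parental stressed cells edgeR called 0 of the 28, with 3 at an unadjusted p under 0.05 and 0.0266% of genes called. The counts also differed when only the 2 groups compared entered the fit. In the tagged line 21 of the 26 mRNAs tested then fell in unstressed and 16 of 26 in stressed cells (19.8% and 12.4% of genes changed), and in parental cells 11 of 27 and 0 of 27 (15.3% and 0.0%).

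Genes chosen for their level or their role are given well by well. RPS24 had 6329, 6135, 5848 and 6177 CPM in tagged unstressed cells with the vehicle and 5363, 3631, 4966 and 5286 with auxin. RPS6 had 3515, 3291, 3545 and 3751 and then 3039, 2208, 3001 and 3206. RPS27A had 4601, 3999, 4044 and 5125 and then 3689, 2993, 3324 and 3741. In these genes and in FAU (2095, 1844, 1922 and 2235, then 1819, 1304, 1563 and 1726) the wells with auxin lay below those with the vehicle. RPSA, also chosen by role, had 59.4, 57.5, 63.5 and 69.3 and then 61.2, 44.6, 54.0 and 68.2, which overlapped. In unstressed parental cells RPS6 averaged 3389 CPM with the vehicle and 3396 with auxin. There the means of RPS24 (5773 and 5503), RPS27A (4784.5 and 4341) and FAU (2020 and 1907) were lower with auxin. The share of all genes whose wells did not overlap was not computed. RPS7 cannot be followed, since its highest library held 13 reads.

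**Figure D3:**
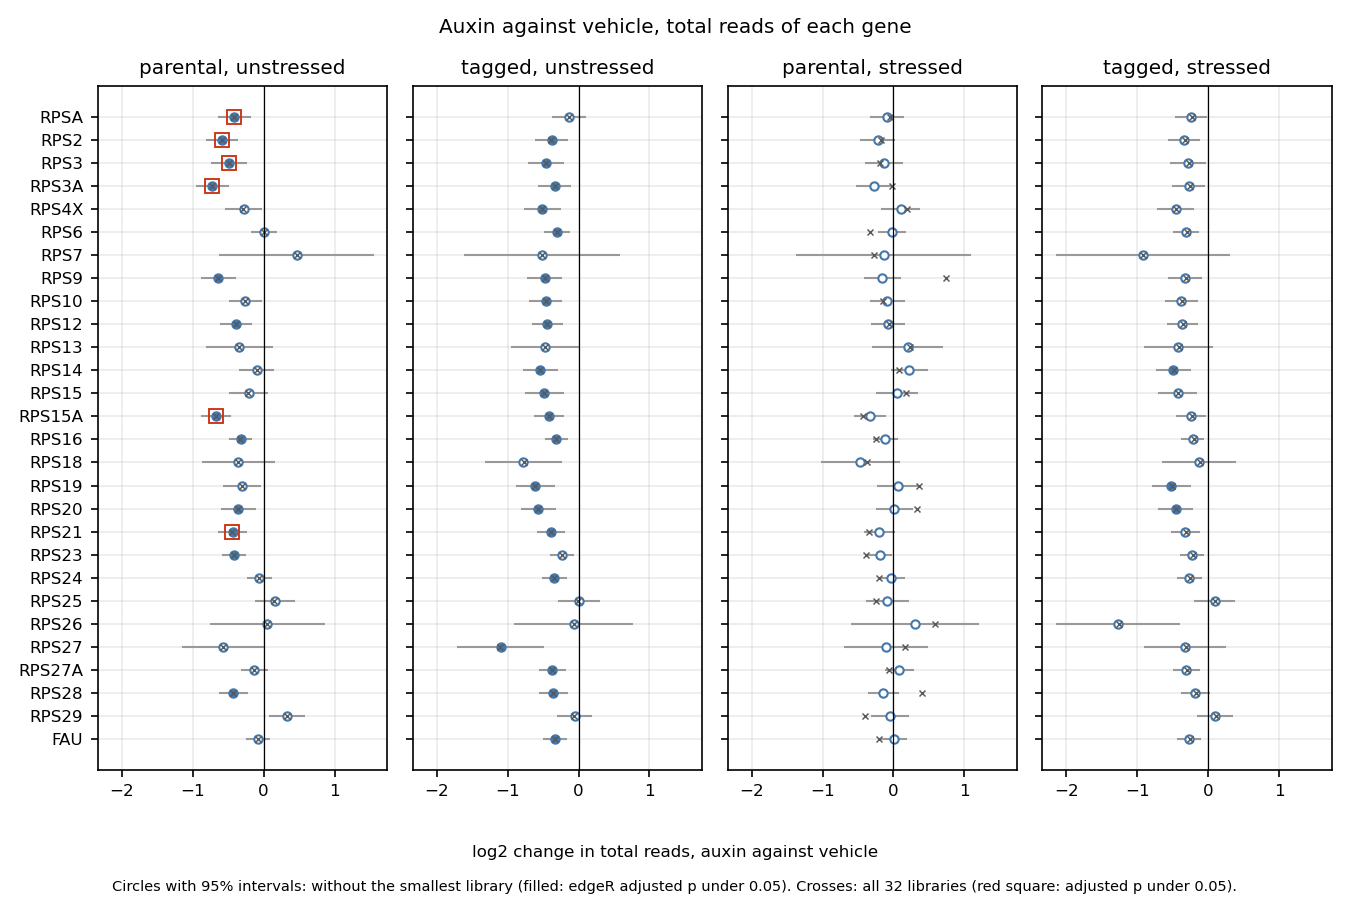
Change of each of the 28 mRNAs with auxin (log2, total reads) in the 4 pairs of groups. Circles with 95% intervals are the fit without the smallest library, filled where edgeR's adjusted p passed 0.05, and crosses are the fit with all 32 libraries, with a red square where it passed. With all libraries the 28 crosses lie below 0 in unstressed tagged cells, and the 6 red squares are in unstressed parental cells.

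The difference between the lines was tested as such. The change with auxin in tagged cells minus that in parental cells had a median of -0.18 over the 28 mRNAs in unstressed and -0.23 in stressed cells, and edgeR called 0 of them in both (0 and 7 at an unadjusted p under 0.05, 0 by DESeq2; 0.0179% and 0.0% of genes called). Without the smallest library it was again 0 in both (6 and 9 unadjusted; 0.586% and 0.0% of genes). Leaving out replicate 4 of the stressed parental cells with auxin instead gave 5 in stressed cells (9.3% of genes). With the within-group component as a covariate and all libraries the counts were 0 and 3, the 3 more negative in tagged cells (1.35% and 6.22% of genes). The total-read stress change itself differed for 0 of the 28 between the lines (2 and 0 at an unadjusted p under 0.05 with vehicle and auxin, 0 by DESeq2, 0.0% of genes in both) and for 0 between auxin and vehicle (8 unadjusted in parental and 0 in tagged cells, 2 and 0 by DESeq2, which called 0.0% to 8.53% of genes over these differences, and 0.00894% and 0.0% of genes by edgeR). The parental count was 7 without replicate 4 of the stressed wells with auxin (20.5% of genes), 3 without replicate 3 of the unstressed vehicle wells (9.87%) and 1 without replicate 2 of the stressed wells with auxin (5.8%). Between the lines at the same treatment edgeR also called 0 of the 28 in each of the 4 pairs of groups (0.241%, 0.322%, 0.411% and 0.429% of genes called, and 3 to 6 of the 28 at an unadjusted p under 0.05). DESeq2 called 3, all lower in tagged cells, in the stressed pair with auxin, which holds the smallest library, and 0 in the other 3 pairs (0.545% to 5.56% of genes over the 4 pairs). In that pair edgeR called 5 without replicate 4 of the parental wells (11.0% of genes) and 3 without replicate 2 or 3 (5.76% and 5.57%). Without the smallest library it called 1 in each vehicle pair (1.31% and 3.43%). Labelled reads gave 0 of 24 in the 4 pairs (1, 6, 5 and 6 unadjusted, 0 by DESeq2, 0.0111%, 0.0891%, 0.1% and 0.0557% of genes), and the labelled share gave 0 of 24 (0, 1, 4 and 3 unadjusted, 0.0111%, 0.0223%, 0.0111% and 0.0445% of genes), in the order unstressed with vehicle and auxin, stressed with vehicle and auxin.

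The counts of mRNAs that fell with auxin depended on which covariate entered the fit. The within-group component was centred on the wells of each group other than the smallest library, which stayed in this fit with a score of -0.905. It holds no difference between groups apart from the one this library brings. Taken from these same data, it also removes spread within groups by construction. With it, 14 of the 28 fell in unstressed parental cells and 19 and 10 in unstressed and stressed tagged cells, and 0 were called in stressed parental cells (28.6%, 22.1%, 14.1% and 0.0536% of genes called, in that order). The 3 fits that follow left out the smallest library and were chosen after seeing the data. With the component score that keeps group differences, 2 fell and 1 rose in unstressed parental cells and 0 were called in the other 3 pairs (2.45%, 0.382%, 0.133% and 0.0711% of genes, parental then tagged, unstressed then stressed). With covered T per read, 0 were called in any of the 4 auxin comparisons, with medians of 0.07 and -0.01 in parental and -0.12 and -0.09 in tagged cells (1.08%, 0.32%, 0.0444% and 0.0266% of genes). Covered T per read over genes other than those of ribosomal proteins also gave 0, with medians of 0.05, -0.01, -0.16 and -0.12 (0.879%, 0.124%, 0.0533% and 0.0266% of genes). In these 3 fits 8, 4 and 1 of the 28 fell more in tagged than in parental unstressed cells (5.04%, 3.14% and 2.95% of genes). Covered T per read and auxin move together in these groups, so what belongs to each cannot be told apart here.

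With stress edgeR called total reads of these mRNAs in 1 of the 4 pairs of groups. It called 0 of 28 in parental cells with the vehicle (0 at an unadjusted p under 0.05, 0 by DESeq2, median -0.17, 12.9% of genes called). In the tagged line it called 0 with the vehicle (0 unadjusted, 0 by DESeq2, median 0.06, 4.03% of genes) and 0 with auxin (1 unadjusted, 0 by DESeq2, median 0.16, 4.15% of genes). In parental cells with auxin RPS9 and RPS28 rose, by 1.19 ± 0.31 (edgeR adjusted p = 0.0118) and 0.67 ± 0.22 (edgeR adjusted p = 0.0455), where 7.26% of genes rose and 10.5% changed. RPS9, which helps to set decoding accuracy, had 4762, 1026, 1161 and 975 CPM in the stressed wells and 861, 837, 770 and 979 in the unstressed ones, and RPS28 had 2698, 943, 1024 and 855 against 808, 883, 809 and 949. The first value of each stressed group is the smallest library. Without it RPS9 differed by 0.29 and RPS28 by 0.13, and edgeR called 0 of the 28 (9.23% of genes). Of the other 3 stress comparisons 1 changed when that library was left out of the fit. RPS29 then rose by 0.48 ± 0.13 (edgeR adjusted p = 0.00568) and RPS20 fell by 0.32 in parental cells with the vehicle, where 30.1% of genes were called. RPS29 had 2375, 1758, 3381 and 2994 CPM in the unstressed and 3665, 3500, 3907 and 3519 in the stressed wells, with no overlap.

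Labelled reads were tested in the same 4 stress comparisons. In parental cells with the vehicle 5 of the 24 tested mRNAs fell and none rose, while 7.06% of the 8980 genes tested fell and 17.2% changed. The 5 were RPS2 at -0.69 ± 0.22, RPS4X at -0.50 ± 0.16, RPS15 at -0.44 ± 0.16, RPS20 at -0.57 ± 0.19 and RPS23 at -0.37 ± 0.13 (edgeR adjusted p = 0.0200, 0.0180, 0.0415, 0.0340 and 0.0351). The count was 0 without replicate 2 of the stressed or of the unstressed wells (11.7% and 12.4% of genes called). It was 1 without replicate 3 of the stressed or replicate 1 of the unstressed wells (15% and 13.1%). It was 2 and 3 without replicate 4 of the stressed and of the unstressed wells (14.1% and 14.3%). Without the smallest library it was 10, when RPS29 was the only one of them that rose and 21.5% of genes were called. FAU rose in the tagged line with the vehicle (0.45 ± 0.14, edgeR adjusted p = 0.0311, 9.4% of genes called) and with auxin (0.54 ± 0.15, edgeR adjusted p = 0.00771, 9.77%), and RPS14 rose with it in the latter (0.51, edgeR adjusted p = 0.0194). In parental cells with auxin edgeR called 0 of the 24 with all libraries (4 at an unadjusted p under 0.05, 2 by DESeq2, 11.4% of genes by edgeR and 9.87% to 17.4% by DESeq2 over the stress comparisons). Each of the tagged calls was lost without at least 1 single library: FAU with the vehicle without replicate 2 of the stressed or replicate 1, 2 or 3 of the unstressed wells, FAU with auxin without replicate 2 of the unstressed auxin wells, where it was 0.43, and RPS14 without that library or replicate 1 of the same group or replicate 2 of the stressed auxin wells.

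Labelled reads of 1 mRNA passed the test with auxin. RPS14 fell in tagged unstressed cells by 0.75 ± 0.15 on the log2 scale (edgeR adjusted p = 0.0119, 0.2% of genes called). Its labelled reads numbered 219, 158, 235 and 323 with the vehicle and 114, 123, 144 and 171 with auxin, and per library size the groups did not overlap. The call was lost without replicate 1 or 4 of the vehicle wells or replicate 2 of the auxin wells. Of the 24 mRNAs 23 were negative in this comparison, with a median of -0.44, and 13 passed the test without the smallest library, where 1.81% of genes did. In tagged stressed cells the median was -0.41 and edgeR called 0 (13 at an unadjusted p under 0.05, 0 by DESeq2, 0.0% of genes), or 7 without the smallest library, all lower (0.992% of genes). The medians in parental cells were -0.28 unstressed and -0.16 stressed, with 0 called in both (9 and 1 unadjusted, 1 and 0 by DESeq2, 0.601% and 0.0111% of genes), or 6 and 0 without the smallest library (3.54% and 0.0327%). For labelled reads with auxin DESeq2 called 0.0334% to 1.44% of genes over the comparisons.

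The labelled share sets the labelled reads of a gene against its other reads in the same library. In the raw values it was lower with stress in each pair of groups. The labelled share of the summed reads of the 28 mRNAs was 3.92% ± 0.165 in unstressed and 3.07% ± 0.167 in stressed parental cells with the vehicle, and 3.62% ± 0.134 and 2.84% ± 0.0792 with auxin. The tagged line gave 3.80% ± 0.162 and 3.18% ± 0.119 with the vehicle, and 3.38% ± 0.222 and 2.74% ± 0.148 with auxin. Over all named genes it went from 12.9% ± 0.520 to 11.8% ± 0.739 and from 12.7% ± 0.561 to 10.9% ± 1.41 (11.6% ± 0.528, n = 3, without the smallest library) in parental cells, and from 12.6% ± 0.748 to 11.9% ± 0.467 and from 12.1% ± 0.637 to 11.1% ± 0.641 in the tagged line. Because the typical gene fell too, the test was centred on it, and a call means a share that changed relative to that of the typical gene. Without this centring 16, 16, 9 and 14 of the 24 mRNAs fell with stress (parental with vehicle and auxin, then tagged with vehicle and auxin) and none rose, where 22.1%, 17.1%, 11.0% and 12.4% of genes changed. The median of the 24 moved from -0.06, -0.07, -0.05 and -0.12 with the centring to -0.39, -0.42, -0.31 and -0.40 without it. Conversions per covered T over all named genes were also lower in every stressed well than in the unstressed wells of its pair. In parental cells with the vehicle they were 1.22%, 1.13%, 1.12% and 1.05% unstressed and 0.786%, 0.842%, 0.756% and 0.842% stressed. Reads of the 28 cover fewer T, and how far this enters the fall of their labelled share was not tested.

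FAU stood apart from the other 23 in this measure, as the only one called in all 4 stress comparisons. Its labelled share in parental cells with the vehicle was 4.78%, 4.59%, 4.48% and 3.90% unstressed and 4.84%, 5.04%, 4.29% and 4.98% stressed. With auxin it was 4.38%, 3.35%, 3.89% and 3.56% unstressed and 3.57%, 4.75%, 3.86% and 4.28% stressed. In the parental cells the wells overlapped. Tagged cells gave 4.00%, 4.25%, 4.08% and 3.80% unstressed and 4.42%, 5.50%, 4.78% and 4.40% stressed with the vehicle, and 3.82%, 3.20%, 4.24% and 3.83% and then 4.36%, 4.25%, 4.71% and 4.27% with auxin. There all stressed wells were above all unstressed wells. Relative to the typical gene the share rose by 0.45 ± 0.09, 0.51 ± 0.10, 0.51 ± 0.09 and 0.53 ± 0.10 on the log2 scale (edgeR adjusted p = 9.49e-05, 6.75e-05, 2.02e-05 and 1.93e-05, in the order parental vehicle and auxin, tagged vehicle and auxin), and 8.17%, 8.1%, 7.1% and 7.14% of genes changed. Without the centring FAU was at 0.12, 0.16, 0.25 and 0.24, none of which passed the test. Conversions of FAU per covered T had a higher mean with stress in no pair. They went from 0.387% to 0.336% and from 0.303% to 0.273% in parental cells, with vehicle and auxin. In tagged cells they went from 0.3937% to 0.3899% and from 0.3202% to 0.3196%. The stress change of FAU differed between the lines by 0.06 ± 0.13 with the vehicle and 0.02 ± 0.14 with auxin, and neither passed the test. Total reads of FAU did not change with stress in any of the 4 pairs, at -0.13, -0.25, 0.00 and 0.07. The 4 comparisons pair 8 separate groups, in which no library is shared.

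**Figure D4:**
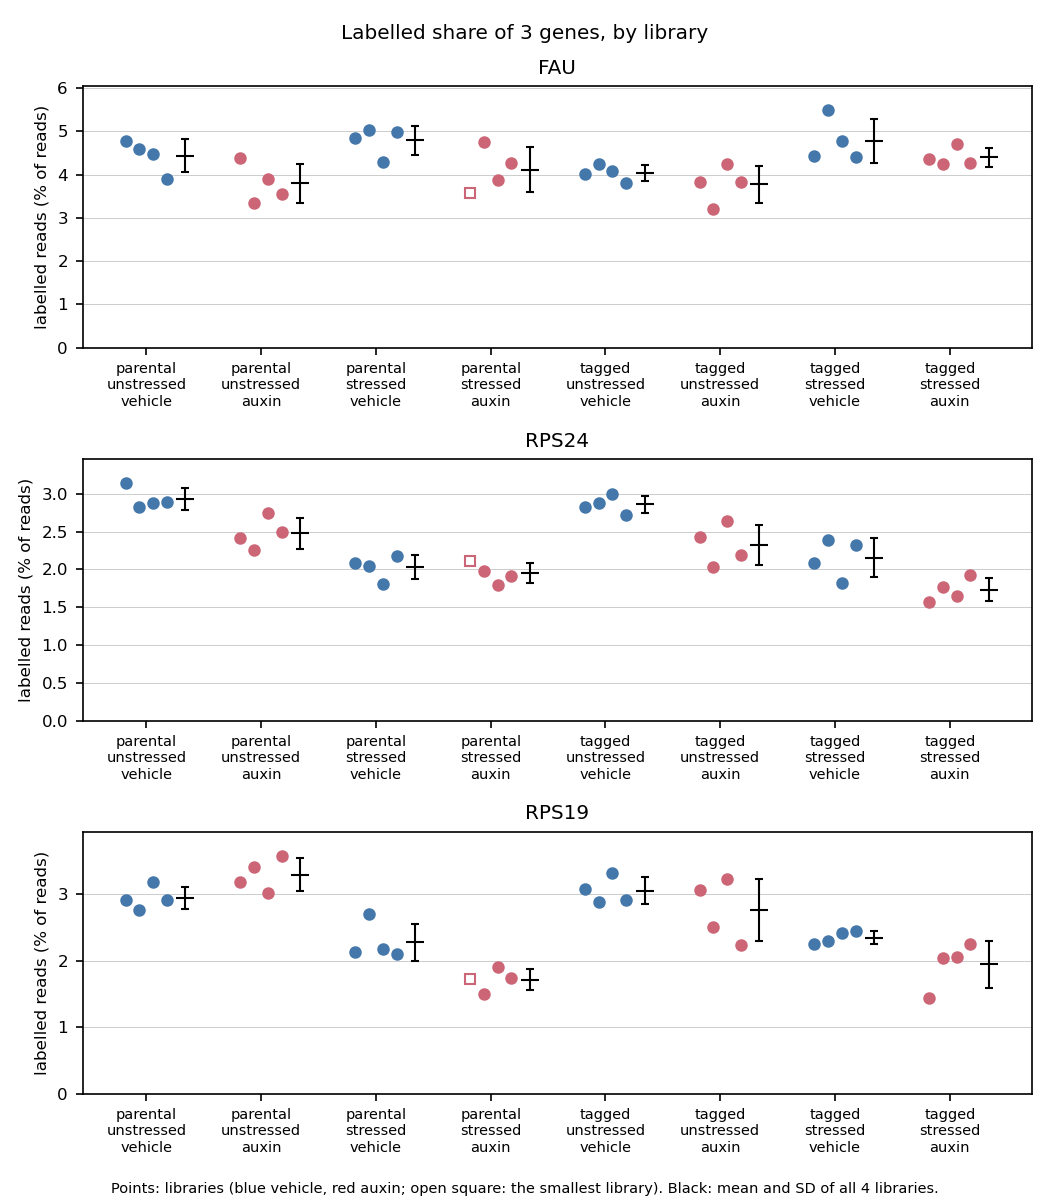
Labelled share of FAU, RPS24 and RPS19 in percent of their reads, by group, with single libraries as points (the open square is the smallest library) and the mean with the SD of all 4 in black. FAU is higher in stressed than in unstressed wells of the tagged line without overlap, while RPS24 is lower in stressed wells in all 4 pairs.

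The other calls in the labelled share were each made in 1 comparison. In parental cells with auxin the share of RPS19 fell by 0.60 ± 0.13 on the log2 scale, again measured against the typical gene (edgeR adjusted p = 0.00036). Its labelled share there was 3.17%, 3.40%, 3.01% and 3.57% unstressed and 1.72%, 1.50%, 1.90% and 1.74% stressed, with no overlap, and the call held when any 1 library was left out. Except for the smallest library, these fits of the share kept the dispersions estimated from all libraries, so the library left out still entered the estimate of the spread. RPS29 rose in the tagged line with the vehicle by 0.32 ± 0.09 (edgeR adjusted p = 0.0119), from 3.11%, 3.07%, 3.75% and 3.59% to 3.33%, 3.58%, 3.27% and 3.92%. Its wells overlapped, and the call was lost without replicate 1 or 2 of the unstressed or replicate 4 of the stressed wells, at 0.24 in the first case. RPS14 rose in the tagged line with auxin by 0.43 ± 0.10 (edgeR adjusted p = 0.00202), from 2.21%, 2.34%, 2.90% and 2.63% to 2.38%, 3.07%, 2.83% and 2.80%, again with overlap. RPS3A fell there by 0.99 ± 0.32 (edgeR adjusted p = 0.044), on 19, 15, 27 and 15 labelled reads in the unstressed and 6, 7, 7 and 20 in the stressed wells, and the call was lost when any of 6 single libraries was left out. The mRNA with the most reads, RPS24, had a labelled share of 2.93% ± 0.144 in unstressed and 2.03% ± 0.159 in stressed parental cells with the vehicle, and its change relative to the typical gene passed the test in none of the 4 stress comparisons with all libraries. With auxin edgeR called 0 of the 24 shares in each of the 4 comparisons (3, 2, 1 and 5 at an unadjusted p under 0.05, and 0.212%, 0.0%, 0.0% and 0.0% of genes called). For the stress change of the share, edgeR called a difference between the lines for 0 of the 24 (3 and 4 unadjusted, 0.0% of genes with the vehicle and with auxin).

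**Figure D5:**
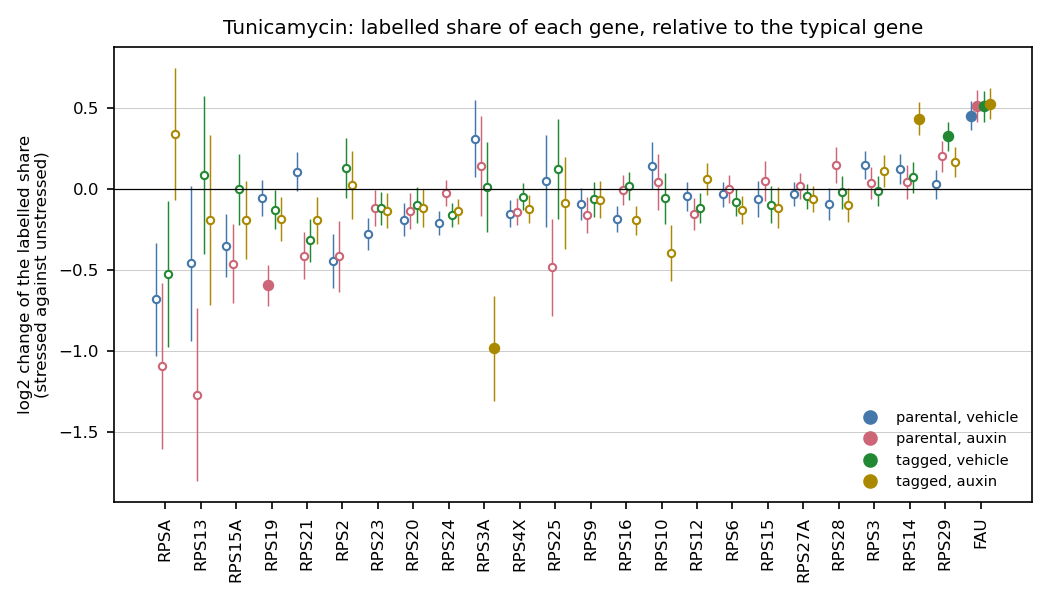
Change of the labelled share with stress relative to the typical gene (log2) for the 24 mRNAs tested, in the 4 pairs of groups, with bars of 1 standard error. FAU is above 0 in all 4 pairs, at 0.45 to 0.53, and filled points passed edgeR's test.

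Other genes of the ribosome and its assembly were read from lists for comparison. With auxin in unstressed parental cells 7 of 47 large-subunit genes fell, among them RPL31 at -0.59 and RPL11 at -0.54. Their median was -0.27, next to -0.34 for the 28. In this comparison 2.33% of all genes fell and 4.83% rose. Of 22 further TOP mRNAs tested 3 fell and 1 rose, of 35 small-subunit assembly factors 2 fell and 3 rose, and of 19 regulators and modifiers of the subunit 1 rose. In unstressed tagged cells edgeR called 0 genes of each of these lists with all libraries. The large-subunit genes held 6.76% ± 0.0749 of reads with the vehicle and 5.88% ± 0.673 with auxin in unstressed tagged cells. In stressed tagged cells they held 6.82% ± 0.242 and 6.22% ± 0.104. As for the 28, the wells with auxin lay below those with the vehicle in both pairs of the tagged line, and in parental cells they overlapped. With stress in parental cells and the vehicle, 4 of 35 assembly factors rose and 2 fell, and none of the 47 large-subunit genes was called, where 7.64% of all genes rose and 5.26% fell. UTP3, a factor of early small-subunit assembly, fell in all 4 stress comparisons, by 0.61, 0.70, 0.73 and 0.65 on the log2 scale (edgeR adjusted p = 3.87e-06, 4.57e-07, 2.65e-07 and 1.76e-06). Its labelled share rose in the same comparisons by 0.99, 0.84, 1.08 and 1.28 against the typical gene on the log2 scale (edgeR adjusted p = 3e-06, 0.000814, 2.02e-06 and 1.67e-08).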

How the data were processed

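SLAM-seq of mRNA 3′ ends was analysed in 32 libraries, 4 in each of 8 groups. The authors deposited 1 table per library with the count of reads and of reads with T-to-C conversions for each counted region, with the columns covered T and conversions, per the file headers. Reads were aligned to hg38, per the submitters' processing notes; the aligner's settings are not given in the sources used here. RefSeq transcript identifiers were matched to symbols, each gene was represented by its transcript with the most reads, and 72 genes whose counts were identical to another gene's in every library were dropped. Total reads, labelled reads and the labelled share (labelled and other reads of a library, with 1 term per library) were tested with edgeR 4.0.16 (quasi-likelihood test, TMM scaling, filterByExpr, Benjamini-Hochberg adjustment over all genes tested, threshold 0.05) in R 4.3.3, in 1 fit over all 8 groups. DESeq2 1.42.0 and limma 3.58.1 served as alternatives. The scripts were tested on simulated data. Members and lists were chosen with earlier results of these data known. Genes named with values were RPS6, RPSA, RPS27A, FAU, the members with the highest and lowest mean level, and in each reading of a stress or auxin comparison up to 4 members past the threshold with the smallest adjusted p; others were named after their values were seen. Replicate numbers were checked for pairing: in 0 of 12 comparisons did all same-numbered wells correlate above 0.1 (-0.527 to 0.595), so wells were treated as unpaired. No wells of a group were alike within counting error: chi-square divided by its degrees of freedom was 2.08 to 66.1.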

Additional observations from a re-analysis of the deposited data

Results flagged for a closer look

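In groups of 4 libraries, a library was singled out when its gap to the nearest other library, divided by the range of the group (the gap ratio in parentheses), was above Dixon's critical value. This held for 13 of 184 groups of values, and in 7 of the 13 the library was the smallest one, replicate 1 of the stressed parental cells with auxin. Chance gives about 1 in 20 for independent groups. These groups repeat the same 32 libraries over genes partly named for their values, so the count cannot be compared with that rate. In that library covered T per read was 15.1, against 22.6 to 22.9 in the other wells (gap ratio 0.955). CPM there were 4762 against 975 to 1161 for RPS9 (0.951), 2698 against 855 to 1024 for RPS28 (0.908), 3023 against 1374 to 1584 for RPS20 (0.872) and 259 against 134 to 138 for RPS3A (0.97). They were 492 against 3362 to 3662 for RPS29 (0.905) and 145 against 197 to 204 for RPS15A (0.867).

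Replicate 2 of the unstressed tagged cells with auxin was low for RPS2, at 228 against 337 to 349 CPM (0.899), and for RPS19, at 548 against 891 to 951 (0.85). RPS2 had 412 CPM in replicate 4 of the unstressed parental cells with auxin, against 338 to 348 (0.865). RPS27A had 5174 in replicate 4 of the stressed tagged cells with the vehicle, against 4203 to 4241 (0.961). The labelled share of RPS19 was 2.69% in replicate 2 of the stressed parental cells with the vehicle, against 2.10% to 2.18% (0.863), and that of RPS29 was 2.94% in replicate 2 of the unstressed parental cells with auxin, against 3.34% to 3.41% (0.853).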

How the results depend on the processing

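Counts below are members called by edgeR unless another tool is named, in the order total reads, labelled reads, labelled share. The calls of FAU in the labelled share kept their direction and passed the threshold in 45 of 46 alternatives in each of the 4 stress comparisons, the exception being no centring on the typical gene, and that of RPS19 in parental cells with auxin in 46 of 46. Of these 46, 32 left out 1 library each, often one outside the 2 groups compared. Except for the smallest library they kept the dispersions of the main fit, so their agreement with it was partly built in. For the other results below the cause of a change was not tested, except where fewer or more libraries or genes enter by construction.

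Leaving out 1 library at a time, total-read counts with stress ran from 0 to 2 (parental, vehicle) and 0 to 3 (parental, auxin), and with auxin from 1 to 12 and 0 to 2 in parental and 0 to 20 and 0 to 3 in tagged cells, unstressed and stressed in turn. The fits with the highest counts called 30.1% of all genes for stress (parental, vehicle). For auxin they called 24.9% and 7.36% in parental and 15.9% and 2.51% in tagged cells. Differences between the lines ran from 0 to 5 for auxin in stressed cells, 0 to 1 for the lines unstressed and stressed with the vehicle and 0 to 5 stressed with auxin, and the difference of the stress change between auxin and vehicle in parental cells from 0 to 7. Their highest counts came where 9.3%, 1.31%, 3.43%, 11.0% and 20.5% of genes were called, in that order. Labelled-read counts with stress ran from 0 to 10, 0 to 2, 0 to 1 and 0 to 3, with auxin from 0 to 6 (parental unstressed), 0 to 13 (tagged unstressed) and 0 to 7 (tagged stressed), and for the difference between the lines in stressed cells from 0 to 2. At the highest counts 21.5% and 12.3% of genes were called with stress in parental cells. With auxin it was 3.54%, 1.81% and 0.992%, and for the difference 0.557%. Labelled-share counts with stress ran from 1 to 3, 2 to 3, 1 to 3 and 2 to 3. The upper ends of 20, 13, 12, 10 and 7 members with auxin or stress came without the smallest library, and the 5 and 7 for differences in total reads without replicate 4 of the same group. With all but replicate 4 of that group, or all but replicate 3 of the unstressed parental cells with the vehicle, 2 members fell in total reads with auxin in unstressed tagged cells (2.02% and 2% of genes called).

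Percentages in parentheses below give the range of all genes called over the comparisons of that kind. For the labelled share with stress this range was 7.07% to 11.3% with the compared libraries alone and 7.41% to 9.02% with the within-group component. With the compared libraries alone in the fit, total-read calls were 1 and 0 with stress in parental cells (vehicle, auxin), 11, 21 and 16 with auxin (parental unstressed, tagged unstressed, tagged stressed) and 2 between the lines stressed with the vehicle (stress 1.11% to 20.7%, auxin 0.0% to 19.8%, lines 0.0% to 3.44%); labelled-read calls were 9 with stress in parental cells and 5, 14 and 8 with auxin (6.43% to 23.4% and 0.0% to 4.05%); and the labelled share gave 4 in parental cells with the vehicle. With the within-group component as a covariate, total-read calls were 6, 1 and 2 with stress (parental vehicle, parental auxin, tagged auxin), 14, 19 and 10 with auxin, 3 for the difference of auxin between the lines in stressed cells, 2, 3 and 2 between the lines (unstressed vehicle, unstressed auxin, stressed vehicle), and 2 and 4 for differences of the stress change (8.52% to 35.1%, 0.0536% to 28.6%, 1.35% to 6.22%, 1.22% to 11.3% and 0.0% to 13.4%); labelled-read calls were 12 and 1 with stress in parental cells, 6, 13 and 6 with auxin and 1 for the difference in stressed cells (12.4% to 23.8%, 0.0334% to 5.52% and 0.0% to 0.434%); and the share gave 3 in parental cells with the vehicle.

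With covered T per read as a covariate and no smallest library, chosen after seeing the data, total-read calls were 1 in each stress comparison, 0 with auxin in unstressed parental cells, 4 for the difference of auxin between the lines and 2, 4, 3 and 2 between the lines (10.4% to 12.4%, 0.0266% to 1.08%, 0.0178% to 3.14% and 1.43% to 4.3%); labelled-read calls were 2, 2, 2 and 4 with stress, 0 with auxin in unstressed tagged cells and 1 for the difference (12.3% to 14%, 0.0% to 0.0654% and 0.0436% to 0.229%). The same value over genes other than those of ribosomal proteins, also chosen after seeing the data, gave total-read calls of 0, 1, 0 and 1 with stress, 0 with auxin, 1 for the difference and 2, 5, 2 and 4 between the lines (9.99% to 12.2%, 0.0266% to 0.879%, 0.0178% to 2.95% and 1.2% to 4.56%), and labelled-read calls of 2 (parental vehicle), 2 (parental auxin) and 4 (tagged auxin) with stress, 0 with auxin and 1 for the difference (11.8% to 13.8%, 0.0% to 0.0545% and 0.0436% to 0.229%). With the component score that keeps the group differences, also chosen after seeing the data, they were 1, 1, 2 and 6 with stress, 3 with auxin in unstressed parental cells, 8 for the difference and 4, 7, 3 and 2 between the lines (10.1% to 14.6%, 0.0711% to 2.45%, 0.0266% to 5.04% and 1.7% to 5.84%); labelled reads gave 2, 2, 2 and 4, 0, and 2 for the difference (11.0% to 14.4%, 0.0% to 0.0654% and 0.0% to 0.305%).

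With library totals in place of TMM, total reads gave 1 (stress, parental auxin; 4.09% to 13.2%) and 3 (auxin, parental unstressed; 0.0179% to 6.62%), labelled reads 10, 3, 0 and 1 with stress (11.8% to 21.0%), and the share 11, 5 and 7 (parental vehicle, parental auxin, tagged auxin; 8.72% to 14%). With labelled reads scaled by total reads, labelled-read calls were 14, 3, 0 and 1 with stress and 1, 7 and 1 with auxin (12.7% to 26.3% and 0.0223% to 0.624%). Without the low-count filter they were 2 (stress, parental auxin), 0 (stress, tagged vehicle), 3, 6 and 1 with auxin and 1 for the difference in stressed cells, with 1 in total reads and 2 in the share for stress in parental cells. That fit called 5.9% to 11.5% of genes with stress, 0.217% to 1.48% with auxin and 0.0% to 0.73% for the difference in labelled reads. With stress it called 2.71% to 7.88% in total reads and 4.32% to 5.1% in the share. DESeq2 gave 1, 8, 3 and 2 in total reads (auxin in parental stressed and tagged unstressed cells, the lines stressed with auxin, the stress difference in parental cells) and 2, 1, 2 and 1 in labelled reads. In total reads it called 0.304% to 11.9% of genes with auxin, 0.545% to 5.56% between the lines and 0.0% to 8.53% for differences of the stress change. In labelled reads it called 9.87% to 17.4% with stress and 0.0334% to 1.44% with auxin. TMM without ribosomal protein genes gave 2 labelled-read calls with auxin in unstressed tagged cells (0.0% to 0.546% of genes). The share without centring gave 16, 16, 9 and 14 with stress and 1 with auxin in stressed tagged cells, limma on log2 ratios 5 and 1, limma on conversions 1, and the longest counted region 2 and 1. Of all genes, the share without centring called 11.0% to 22.1% with stress and 0.0% to 0.323% with auxin. With stress limma called 5.12% to 8.92% on ratios and 4.1% to 6.38% on conversions. The longest counted region gave 4.08% to 13.1% in total reads, 9.5% to 17.2% in labelled reads and 6.97% to 8.07% in the share with stress. With that region RPS3A reversed with auxin in unstressed parental cells in total reads, to 0.91 (edgeR adjusted p = 0.0406), and RPS29 reversed with stress in tagged cells in the share, to -0.50 (edgeR adjusted p = 0.309). With covered T per read as a covariate RPS3 reversed with auxin in unstressed parental cells, to 0.069 (edgeR adjusted p = 0.783), and to 0.052 (edgeR adjusted p = 0.869) with that value over genes other than those of ribosomal proteins. The replicate block changed the count with stress in parental cells with auxin to 1 in total reads and to 1 in labelled reads (3.92% to 13.1% and 9.3% to 17.2% of genes), and no other count. Equal replicate numbers share only a number, and in 0 comparisons did every library correlate best with its own number.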
